A study of Homo sapiens with 8 samples.

Results

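The genes described here act in DNA repair and in the checkpoints that stop the cell cycle after DNA damage. A list of 35 such genes was set, covering homologous recombination, the Fanconi anaemia pathway, mismatch repair, end joining and the damage checkpoint. A gene was kept where a probe set carried its symbol alone, and where several did, the one with the highest mean over the arrays was used. This left 31 genes among 18404 measured; BRCA2, RBBP8, FANCA and FANCD2 were not analysed here. The levels come from COLO829, an established human melanoma cell line with an activating BRAF mutation, on Affymetrix Human Gene 1.0 ST arrays, 1 per sample. One set of cells carried a short hairpin RNA that targets MITF, the master transcription factor of melanocytes. The control set carried a scrambled hairpin. Both hairpins were delivered in the pGIPZ vector and the cells were selected with puromycin for 2 days. They were then kept for 24 h with PLX4032 at 1 µM, or with DMSO, its solvent. PLX4032 is vemurafenib, a drug that blocks the mutant BRAF kinase. The 8 arrays thus form 4 groups of 2, replicates A and B: MITF hairpin with PLX4032, MITF hairpin with DMSO, scrambled hairpin with PLX4032, and scrambled hairpin with DMSO. The labels name a single MITF hairpin and do not say whether A and B came from separate cultures. The p-values therefore rest on a spread between samples that may be technical.

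Homologous recombination repairs a DNA break by copying an intact sister chromatid. Nucleases cut back the broken ends, the BRCA proteins prepare the exposed strand, further proteins help it to invade the matching sequence, and helicases and nucleases resolve the joined molecules. The Fanconi anaemia proteins detect crosslinks that stall replication and pass them on to recombination, while the kinases ATM and ATR sense breaks and stalled forks and act through CHEK2 and CHEK1 to delay division. Many of these genes are transcribed mainly in dividing cells, around the time of DNA replication, so their levels in a culture are known to follow proliferation.

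Levels are log2 intensities, on which a fall of 1 is a 2-fold loss of signal, and changes are differences of group means ± SE from limma, fitted to the 8 arrays together (n = 2 per group). Each adjusted p is limma's, corrected by Benjamini-Hochberg over all 18404 genes, and rose, fell or called means an adjusted p under 0.05. The small number of arrays limits the precision. Replicates correlated at 0.99734 to 0.99844 over all genes. The arrays of MITF knockdown cells with PLX4032 stood further apart for the repair genes, the median absolute difference between A and B being 0.17 for those 31 genes and 0.102 for all genes. MITF itself had 9.57 and 9.47 in knockdown cells with DMSO, against 10.44 and 10.46 in scrambled cells with DMSO, a change of -0.93 ± 0.08 (adjusted p = 8.28e-06), and 10.07 and 10.08 in knockdown cells with PLX4032, against 10.88 and 10.80 in scrambled cells with PLX4032, a change of -0.76 ± 0.08 (adjusted p = 3.02e-05). The melanocyte markers PMEL (11.7 to 12.85 over the arrays), TYR (10.88 to 11.73) and SOX10 (10.36 to 11.06) were high on every array, while TYRP1 (5.54 to 10.33) and MLANA (4.32 to 8.57) ranged widely over the arrays. These 5 markers differed between the groups. Their changes ran from -2.55 to 0.23 with knockdown in DMSO and from 0.13 to 2.24 with PLX4032 in scrambled cells. Of the leukocyte markers, PTPRC and CD3E did not pass 4.04 on any array and CD14 lay at 4.68 to 5.68. The fibroblast markers lay at 3.38 to 3.83 (DCN), 5.64 to 6.42 (COL1A2), 6.19 to 6.77 (COL1A1) and 9.3 to 9.84 (LUM), and the keratinocyte markers at 3.77 to 4.08 (KRT1), 4.27 to 4.55 (KRT5) and 6.1 to 6.49 (KRT14). The part of other cell types in the results was not tested.

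Most of the repair and checkpoint genes were lower under each perturbation, and lowest when both were combined. With MITF knockdown in DMSO, 26 of the 31 genes fell and 2 rose, where 18.8% of all genes tested fell and 14.4% rose. With PLX4032 in scrambled cells 26 fell and 0 rose, against 16.8% and 17.3% of all genes. Under PLX4032 in knockdown cells 24 fell and 2 rose, against 15.1% and 18.6% of all genes, and with knockdown under PLX4032 21 fell and 0 rose, against 15% and 13.5% of all genes. With both perturbations, set against scrambled cells in DMSO, 28 fell and 0 rose, against 21.5% and 27.1% of all genes. The median change of the 31 genes was -0.749 for knockdown in DMSO, -0.744 for PLX4032 in scrambled cells, -0.484 for PLX4032 in knockdown cells, -0.531 for knockdown under PLX4032 and -1.15 for both. The median over all genes lay between 0.0203 and 0.0829 in these 5 comparisons. A called fall of at least 2-fold was met by 8 of the 31 genes with knockdown in DMSO (1.66% of all genes), 9 with PLX4032 in scrambled cells (2.86%), 6 with PLX4032 in knockdown cells (2.84%), 6 with knockdown under PLX4032 (1.76%) and 17 with both (5.17%). These 5 comparisons share arrays, and in 3 of them the reference is the same pair of scrambled DMSO arrays, so they are given side by side and not as separate evidence. In a culture measured as a whole, less mRNA in every cell and fewer cells in the phase that makes it cannot be told apart. All 25 listed genes of the cell cycle also fell with knockdown in DMSO, with PLX4032 in scrambled cells and with both, and the part of this in the falls of the repair genes was not tested.

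**Figure D1:**
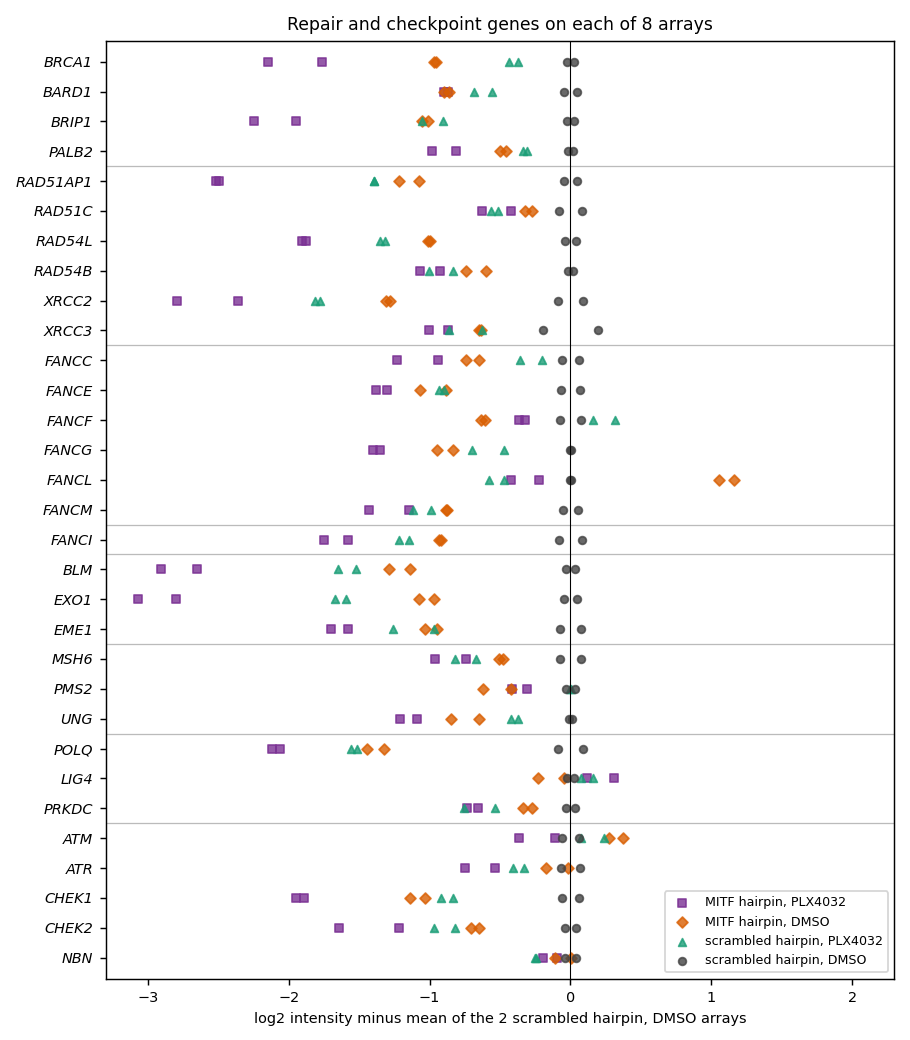
Each row is 1 gene and each point 1 of the 8 arrays, plotted as log2 intensity minus the mean of the 2 scrambled DMSO arrays; grey lines separate the roles. Squares (MITF hairpin with PLX4032) lie furthest left for most genes, the group having the lowest mean of the 4 for 25 of 31 genes.

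The plot of the 31 genes on each array shows this order gene by gene. The group with both perturbations had the lowest mean for 25 of the 31 genes (22.2% of all genes), while MITF knockdown with DMSO and scrambled cells with PLX4032 had it for 3 each. Scrambled cells with DMSO had the highest mean for 26 of them (23.6% of all genes) and the lowest for 0. Across the 5 comparisons of groups, 16 genes fell in all 5 (3.55% of all genes did), 6 in 4, 6 in 3, 1 in 2 and 1 in 1, and only LIG4 fell in 0. Of the 31 genes, 23 fell both with knockdown in DMSO and with PLX4032 in scrambled cells (8.14% of all genes did), 3 fell with knockdown alone (FANCC, FANCF and PMS2), and 3 with PLX4032 alone (FANCL, ATR and NBN). The groups did not overlap for most genes: both knockdown arrays lay below both scrambled arrays in DMSO for 27 of the 31 (33.2% of all genes), and both arrays with both perturbations lay below both scrambled DMSO arrays for 30 (29.8% of all genes).

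**Figure D2:**
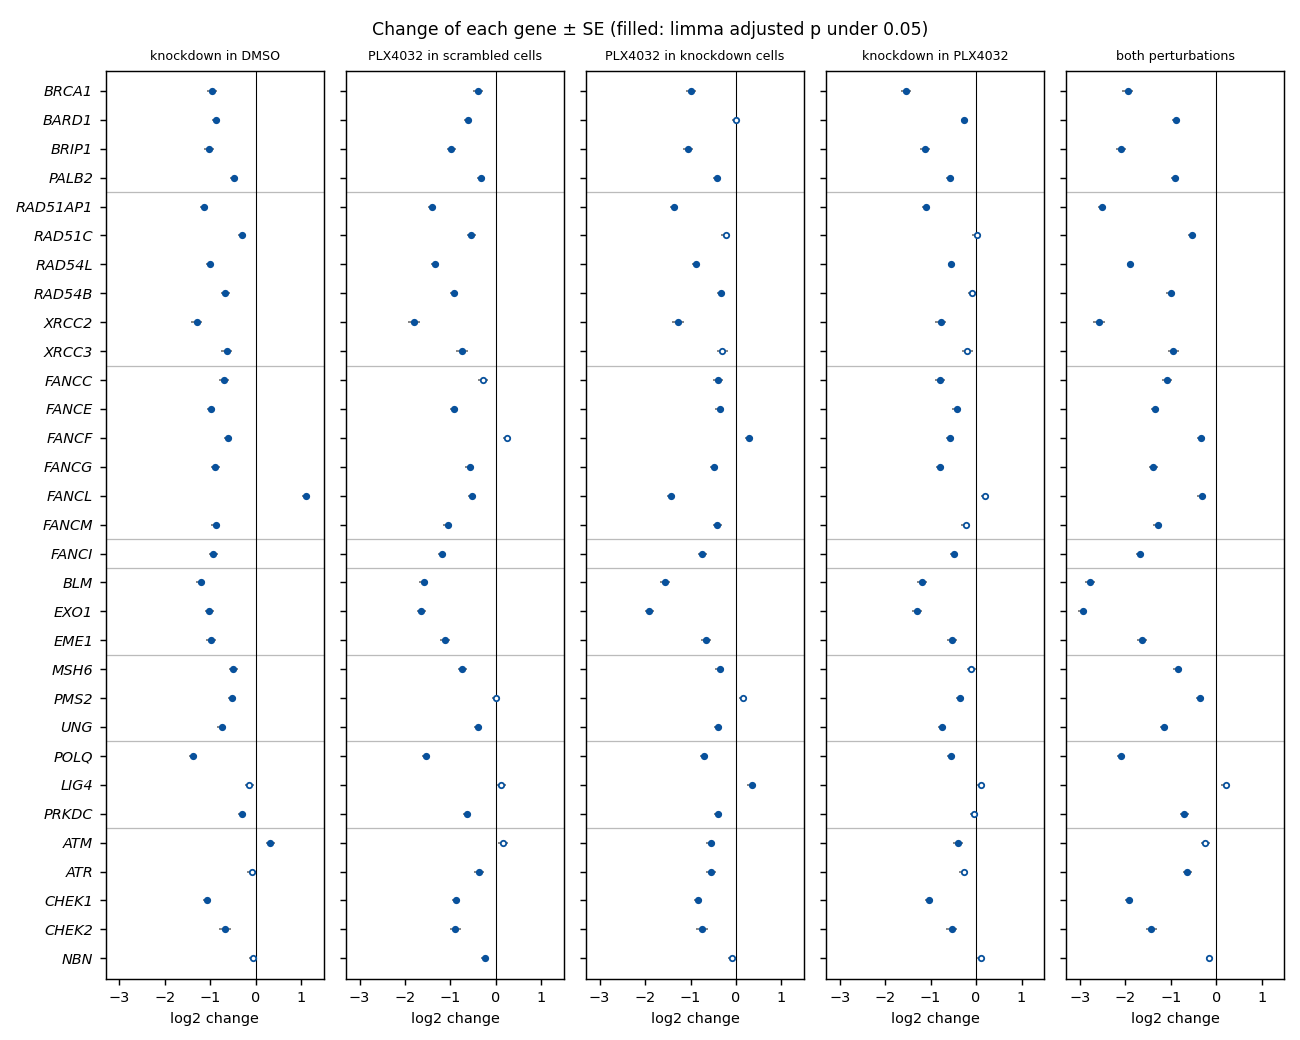
Each panel gives 1 comparison, with the log2 change of each gene as a point and its SE as a bar; filled points had a limma adjusted p under 0.05. Most points lie left of 0 in every panel, and the falls reach -2.94 (EXO1) with both perturbations.

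Promoter sequences are shown for 4 genes picked because they hold an E2F match and because of how their levels moved: RAD51AP1, BLM and RAD54L fell in all 5 comparisons of groups, and FANCL rose with knockdown in DMSO. EXO1, XRCC2 and POLQ, with falls as large, had no E2F match in the entries searched. The sequences are the 250 bases before a RefSeq transcription start on GRCh38.p14, read 5′ to 3′ on the gene's strand, at chr12:4538640-4538889 (plus strand) for RAD51AP1, chr15:90717096-90717345 (plus) for BLM, chr1:46247438-46247687 (plus, the first of 2 starts) for RAD54L and chr2:58241326-58241575 (minus) for FANCL. Capitals mark matches to E2F letters (TTTCCCGC, TTTGGCGC, TTTGCCGC, TTTCGCGC or TTCCCGCC), to E-box letters of the kind MITF binds (CACGTG or CATGTG) and to CHR letters (TTTGAA or TTCGAA), on either strand.
RAD51AP1: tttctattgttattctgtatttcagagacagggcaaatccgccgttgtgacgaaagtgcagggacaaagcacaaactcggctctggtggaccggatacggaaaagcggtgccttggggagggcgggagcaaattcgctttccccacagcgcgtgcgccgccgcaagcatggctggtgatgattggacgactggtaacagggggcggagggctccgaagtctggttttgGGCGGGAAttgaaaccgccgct
BLM: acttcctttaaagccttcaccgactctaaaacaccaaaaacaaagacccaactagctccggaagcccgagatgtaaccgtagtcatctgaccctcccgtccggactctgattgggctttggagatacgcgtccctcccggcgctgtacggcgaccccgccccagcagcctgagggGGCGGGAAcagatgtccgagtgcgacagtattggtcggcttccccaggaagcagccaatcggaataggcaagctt
RAD54L: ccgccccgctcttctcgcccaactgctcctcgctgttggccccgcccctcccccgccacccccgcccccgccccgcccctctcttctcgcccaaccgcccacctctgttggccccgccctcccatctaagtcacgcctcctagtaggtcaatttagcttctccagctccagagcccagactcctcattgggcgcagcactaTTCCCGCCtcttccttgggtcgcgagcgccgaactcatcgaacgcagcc
FANCL: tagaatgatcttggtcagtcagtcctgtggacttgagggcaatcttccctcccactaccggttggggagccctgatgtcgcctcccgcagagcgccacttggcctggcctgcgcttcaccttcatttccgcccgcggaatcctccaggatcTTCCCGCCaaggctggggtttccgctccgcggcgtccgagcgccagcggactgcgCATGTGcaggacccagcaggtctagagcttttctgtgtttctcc
The capitals are an E2F match in each of the 4, and in FANCL also an E-box match nearer to the start. E2F factors drive genes of DNA replication, and CHR elements are found in genes of late cell cycle. Of the 31 genes 27 had a promoter entry, and RAD54B, FANCI, PRKDC and NBN had none. An E2F match lay in at least 1 promoter of 8 of the 27 genes (29.6%; RAD51AP1, RAD54L, FANCC, FANCL, BLM, MSH6, PMS2 and UNG), against 5.76% of 27305 genes with entries. The set of E2F letters was widened once after a first search, and the part of that choice in this excess was not tested. RAD51AP1, RAD54L, FANCL, BLM and MSH6 matched only through TTCCCGCC, read on either strand. CCAAT, the letters that the factor NF-Y binds, were in 16 of the 27 (59.3%), against 37% of all genes. CHR letters were in 5 genes (18.5%), against 17.2%, which per promoter turned to 11.4% of 44 promoters of the listed genes, against 14.3% of 35116. E-box letters were in 2 genes, FANCL and UNG (7.41%), against 18.2%. Per promoter the shares were 27.3% against 4.76% for E2F, 50% against 32% for CCAAT and 6.82% against 15.2% for the E-box. Promoters of the same gene can overlap, as for RAD54L, MSH6, PMS2 and CHEK1, so a single site can be counted more than once. The shares per promoter are therefore no separate evidence beside those per gene. A match is a run of letters and not a measured binding site.

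The genes of the BRCA complex fell in nearly every comparison. BRCA1 is the ubiquitin ligase that promotes end resection, BARD1 is its obligate partner, BRIP1 is a helicase bound to it, and PALB2 links it to BRCA2. All 4 fell with knockdown in DMSO, with PLX4032 in scrambled cells, with knockdown under PLX4032 and with both, and 3 fell with PLX4032 in knockdown cells. BRCA1 had levels of 6.38 and 6.76 in MITF knockdown cells with PLX4032, 7.55 and 7.57 in MITF knockdown cells with DMSO, 8.15 and 8.09 in scrambled cells with PLX4032 and 8.49 and 8.55 in scrambled cells with DMSO. The 4 groups did not overlap, and both arrays with both perturbations were the lowest. BRCA1 changed by -0.96 ± 0.113 (adjusted p = 7.83e-05) with knockdown in DMSO, -1.55 ± 0.113 (adjusted p = 1.75e-06) with knockdown under PLX4032 and -1.95 ± 0.113 (adjusted p = 1.3e-07) with both, a 3.88-fold fall. PLX4032 changed it by -0.99 ± 0.113 (adjusted p = 4.12e-05) in knockdown cells and by -0.40 ± 0.113 (adjusted p = 0.0175) in scrambled cells. BARD1 read 7.30 and 7.27 in MITF knockdown cells with PLX4032, 7.31 and 7.27 in MITF knockdown cells with DMSO, 7.48 and 7.61 in scrambled cells with PLX4032 and 8.13 and 8.21 in scrambled cells with DMSO. Its knockdown arrays with PLX4032 and with DMSO overlapped at the lowest level, below scrambled cells with either treatment. BARD1 changed by -0.88 ± 0.083 (adjusted p = 1.66e-05) with knockdown in DMSO and fell by 0.62 with PLX4032 in scrambled cells (adjusted p = 0.00016), while PLX4032 in knockdown cells gave -0.01 ± 0.083 (adjusted p = 0.966). BRIP1 changed by about the same amount in each of the 4 comparisons of 1 perturbation, between -1.12 and -0.98, and by -2.10 ± 0.105 (adjusted p = 5.34e-08) with both. PALB2 showed smaller falls, between -0.32 and -0.57, and -0.90 ± 0.086 (adjusted p = 6.63e-06) with both. Leaving out 1 array ended the PLX4032 call in scrambled cells for BRCA1 (without either scrambled PLX4032 array or scrambled DMSO replicate B, -0.44 to -0.37) and for PALB2 (without replicate B of either scrambled group, -0.31 to -0.30). The BARD1 call for knockdown under PLX4032 ended without any of 5 arrays (the 4 knockdown arrays and scrambled PLX4032 replicate B, -0.28 to -0.20).

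Among the genes that serve strand invasion, RAD51AP1, RAD54L and XRCC2 lost most signal. RAD51AP1 helps the invading strand to pair, RAD54L and RAD54B are motor proteins that move along DNA, and RAD51C, XRCC2 and XRCC3 are subunits of complexes that assist recombination. All 6 fell with knockdown in DMSO, with PLX4032 in scrambled cells and with both, 4 fell with PLX4032 in knockdown cells and 3 with knockdown under PLX4032. XRCC2 had levels of 6.35 and 6.78 in MITF knockdown cells with PLX4032, 7.83 and 7.86 in MITF knockdown cells with DMSO, 7.32 and 7.36 in scrambled cells with PLX4032 and 9.05 and 9.23 in scrambled cells with DMSO. Its groups did not overlap, and the scrambled DMSO arrays stood far above every other array. XRCC2 changed by -1.30 ± 0.126 (adjusted p = 2.05e-05) with knockdown in DMSO, by -1.80 ± 0.126 (adjusted p = 1.49e-06) with PLX4032 in scrambled cells, the largest fall of the 31 genes in that comparison, and by -2.58 ± 0.126 (adjusted p = 4.31e-08) with both. RAD51AP1 read 5.77 and 5.75 in MITF knockdown cells with PLX4032, 7.06 and 7.20 in MITF knockdown cells with DMSO, 6.88 and 6.88 in scrambled cells with PLX4032 and 8.22 and 8.32 in scrambled cells with DMSO. The groups were again apart, and both perturbations together changed it by -2.51 ± 0.084 (adjusted p = 3.51e-09), a 5.69-fold fall. RAD54L had 5.46 and 5.50 in MITF knockdown cells with PLX4032, 6.38 and 6.36 in MITF knockdown cells with DMSO, 6.02 and 6.05 in scrambled cells with PLX4032 and 7.34 and 7.41 in scrambled cells with DMSO. Its knockdown arrays with DMSO lay above the scrambled arrays with PLX4032, and it changed by -1.01 ± 0.078 (adjusted p = 3.93e-06) with knockdown in DMSO and -1.34 ± 0.078 (adjusted p = 4.04e-07) with PLX4032 in scrambled cells. RAD54B read 7.04 and 7.18 in MITF knockdown cells with PLX4032, 7.51 and 7.37 in MITF knockdown cells with DMSO, 7.11 and 7.28 in scrambled cells with PLX4032 and 8.09 and 8.13 in scrambled cells with DMSO. The 2 PLX4032 groups overlapped, and knockdown under PLX4032 gave -0.08 ± 0.095 (adjusted p = 0.582), against -0.67 ± 0.095 (adjusted p = 0.000299) for knockdown in DMSO.

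RAD51C and XRCC3 moved less. RAD51C fell with knockdown in DMSO (-0.30, adjusted p = 0.0322) and with PLX4032 in scrambled cells (-0.54, adjusted p = 0.00109), and XRCC3 did so too (-0.64, adjusted p = 0.00296, and -0.74, adjusted p = 0.000927). Under the second perturbation neither was called: with PLX4032 in knockdown cells the difference was -0.23 for RAD51C (adjusted p = 0.0953) and -0.30 for XRCC3 (adjusted p = 0.103). The RAD51C call for knockdown in DMSO ended without either knockdown DMSO array and without scrambled DMSO replicate B (-0.33 to -0.22), and that of RAD54B for PLX4032 in knockdown cells ended without replicate A of either knockdown group (-0.26). Without single arrays PLX4032 in knockdown cells was also called for RAD51C (-0.33, without replicate B of knockdown with PLX4032) and for XRCC3 (-0.30, without either scrambled DMSO array).

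The Fanconi genes split, with FANCL going its own way. FANCC, FANCE, FANCF, FANCG and FANCL belong to the core complex, in which FANCL is the ubiquitin ligase; FANCM is the translocase that anchors the complex on DNA, and FANCI forms with FANCD2 the pair that the complex ubiquitinates. Of the 6 core genes measured, 5 fell and FANCL rose with knockdown in DMSO, 4 fell with PLX4032 in scrambled cells, 5 fell and FANCF rose with PLX4032 in knockdown cells, 4 fell with knockdown under PLX4032 and all 6 fell with both. FANCI fell in all 5. FANCL had levels of 7.67 and 7.87 in MITF knockdown cells with PLX4032, 9.26 and 9.15 in MITF knockdown cells with DMSO, 7.62 and 7.52 in scrambled cells with PLX4032 and 8.09 and 8.10 in scrambled cells with DMSO. Its knockdown arrays with DMSO stood above all others, and the 2 PLX4032 groups were close together below the scrambled DMSO arrays. Knockdown in DMSO changed FANCL by 1.11 ± 0.093 (adjusted p = 7e-06), a 2.16-fold rise, while knockdown under PLX4032 gave 0.20 ± 0.093 (adjusted p = 0.14). PLX4032 changed FANCL by -1.43 ± 0.093 (adjusted p = 5.52e-07) in knockdown cells and by -0.52 ± 0.093 (adjusted p = 0.00115) in scrambled cells. FANCI read 8.27 and 8.44 in MITF knockdown cells with PLX4032, 9.09 and 9.11 in MITF knockdown cells with DMSO, 8.81 and 8.88 in scrambled cells with PLX4032 and 9.95 and 10.10 in scrambled cells with DMSO. The groups did not overlap, and FANCI changed by -1.67 ± 0.092 (adjusted p = 9.36e-08) with both perturbations.

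FANCM and FANCE had the largest falls of the core genes with PLX4032 in scrambled cells. FANCM had levels of 5.34 and 5.63 in MITF knockdown cells with PLX4032, 5.89 and 5.89 in MITF knockdown cells with DMSO, 5.65 and 5.78 in scrambled cells with PLX4032 and 6.72 and 6.83 in scrambled cells with DMSO. The scrambled DMSO arrays were highest, above all the others. It changed by -0.88 ± 0.104 (adjusted p = 8.14e-05) with knockdown in DMSO and -1.06 ± 0.104 (adjusted p = 1.73e-05) with PLX4032 in scrambled cells. FANCE had 7.27 and 7.19 in MITF knockdown cells with PLX4032, 7.50 and 7.68 in MITF knockdown cells with DMSO, 7.67 and 7.63 in scrambled cells with PLX4032 and 8.50 and 8.64 in scrambled cells with DMSO. Its knockdown arrays with DMSO overlapped the scrambled arrays with PLX4032, both below the scrambled DMSO arrays. It changed by -0.98 ± 0.092 (adjusted p = 1.65e-05) with knockdown in DMSO and by -0.92 ± 0.092 (adjusted p = 2.02e-05) with PLX4032 in scrambled cells. FANCG fell in all 5 comparisons, with log2 changes between -1.38 with both perturbations and -0.48 with PLX4032 in knockdown cells. FANCC fell with knockdown in DMSO (-0.70, adjusted p = 0.000608) and was not called with PLX4032 in scrambled cells (-0.28, adjusted p = 0.0719). FANCF was lower with knockdown in either treatment (-0.62, adjusted p = 0.000321 in DMSO, and -0.58, adjusted p = 0.000484 under PLX4032), while PLX4032 gave 0.28 in knockdown cells (adjusted p = 0.0329) and 0.24 in scrambled cells (adjusted p = 0.0598). Several calls of this group ended when single arrays were left out. For PLX4032 in knockdown cells, leaving out 1 of the 4 knockdown arrays ended the calls of FANCC (without replicate A of either group, -0.34 to -0.24), FANCE (without replicate B of either, -0.32 to -0.27), FANCM (without PLX4032 replicate A or either DMSO array, -0.41 to -0.26) and FANCF (without any of the 4, 0.26 to 0.30). With both perturbations the falls of FANCF (-0.27 without scrambled DMSO replicate B) and FANCL (-0.32 to -0.22 without knockdown PLX4032 replicate A or scrambled DMSO replicate B) were lost in the same way. FANCC was called for PLX4032 in scrambled cells without either array of knockdown with PLX4032 (-0.28). FANCM was called for knockdown under PLX4032 without replicate B of knockdown with PLX4032 (-0.37).

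The helicase and nuclease genes fell in every comparison of groups and held the largest falls with both perturbations. EXO1 is the exonuclease that resects broken ends and removes mismatched strands, BLM is the helicase, mutated in Bloom syndrome, that dissolves joined DNA molecules, and EME1 is the partner of the MUS81 nuclease. EXO1 had levels of 6.51 and 6.78 in MITF knockdown cells with PLX4032, 8.61 and 8.51 in MITF knockdown cells with DMSO, 7.91 and 7.99 in scrambled cells with PLX4032 and 9.54 and 9.63 in scrambled cells with DMSO. Its 4 groups did not overlap, and the arrays with both perturbations were lowest. EXO1 changed by -1.02 ± 0.101 (adjusted p = 2.26e-05) with knockdown in DMSO and -1.64 ± 0.101 (adjusted p = 5.95e-07) with PLX4032 in scrambled cells. It changed by -1.91 ± 0.101 (adjusted p = 1.2e-07) with PLX4032 in knockdown cells and by -1.30 ± 0.101 (adjusted p = 2.84e-06) with knockdown under PLX4032. With both perturbations it changed by -2.94 ± 0.101 (adjusted p = 4.2e-09), a 7.65-fold fall and the largest of the 31 genes. BLM read 6.63 and 6.88 in MITF knockdown cells with PLX4032, 8.24 and 8.39 in MITF knockdown cells with DMSO, 7.88 and 8.01 in scrambled cells with PLX4032 and 9.50 and 9.56 in scrambled cells with DMSO. The order of the groups was the same, with changes of -1.21 ± 0.103 (adjusted p = 7.72e-06) for knockdown in DMSO, -1.59 ± 0.103 (adjusted p = 9.06e-07) for PLX4032 in scrambled cells and -2.78 ± 0.103 (adjusted p = 7.11e-09) for both. EME1 followed at smaller size, from -0.53 with knockdown under PLX4032 to -1.64 with both perturbations (adjusted p = 3.62e-07).

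Mismatch and base repair genes showed small to moderate changes. MSH6 recognises base mismatches, PMS2 is the nuclease subunit that nicks the strand to be removed, and UNG excises uracil from DNA. All 3 fell with knockdown in DMSO and with both perturbations. UNG fell in all 5 comparisons, with a change of -0.75 with knockdown in DMSO (adjusted p = 0.000105) and -1.15 with both (adjusted p = 1.57e-06). MSH6 fell by 0.74 on the log2 scale with PLX4032 in scrambled cells (adjusted p = 0.000177), while knockdown under PLX4032 gave -0.11 (adjusted p = 0.479). PMS2 fell with knockdown in DMSO (-0.52, adjusted p = 0.00121) and under PLX4032 (-0.36, adjusted p = 0.0112), whereas PLX4032 gave 0.00 in scrambled cells (adjusted p = 0.998) and 0.16 in knockdown cells (adjusted p = 0.218). For PLX4032 in knockdown cells the MSH6 call ended without PLX4032 replicate A or either DMSO array (-0.37 to -0.25) and the UNG call without DMSO replicate A (-0.30). The PMS2 call under PLX4032 ended without knockdown PLX4032 replicate A or either scrambled PLX4032 array (-0.36 to -0.31).

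The end joining genes behaved unlike one another. POLQ is the polymerase of the end joining that uses short homologies, LIG4 is the ligase that seals the ends in classical end joining, and PRKDC is the catalytic subunit of the DNA-dependent protein kinase that holds them. POLQ had levels of 4.59 and 4.64 in MITF knockdown cells with PLX4032, 5.38 and 5.27 in MITF knockdown cells with DMSO, 5.19 and 5.15 in scrambled cells with PLX4032 and 6.62 and 6.80 in scrambled cells with DMSO. Every array of a perturbed group lay below both scrambled DMSO arrays, and POLQ, alone among the 31, was among the dimmest 40% of genes, where changes are compressed on these arrays. Knockdown in DMSO changed it by -1.38 ± 0.089 (adjusted p = 1.04e-06), the largest fall of the 31 genes in that comparison, and PLX4032 by -1.54 ± 0.089 (adjusted p = 3.91e-07) in scrambled cells and -0.71 ± 0.089 (adjusted p = 8.71e-05) in knockdown cells. LIG4 read 7.95 and 8.14 in MITF knockdown cells with PLX4032, 7.79 and 7.61 in MITF knockdown cells with DMSO, 7.99 and 7.91 in scrambled cells with PLX4032 and 7.81 and 7.86 in scrambled cells with DMSO. Its groups lay close together and it was not called with knockdown in DMSO (-0.14, adjusted p = 0.317), with PLX4032 in scrambled cells (0.12, adjusted p = 0.401) or with both (0.21, adjusted p = 0.0955). PLX4032 in knockdown cells raised LIG4 by 0.35 (adjusted p = 0.017), a call that ended without replicate B of either knockdown group (0.25 to 0.26), and without replicate A of knockdown with PLX4032 the change with both perturbations was called (0.31). PRKDC fell with PLX4032 in scrambled cells (-0.64, adjusted p = 0.00028), with both (-0.70, adjusted p = 9.38e-05) and with PLX4032 in knockdown cells (-0.39, adjusted p = 0.00661). Its call for knockdown in DMSO (-0.30, adjusted p = 0.0279) ended without either knockdown DMSO array or scrambled DMSO replicate B (-0.33 to -0.27), and that for PLX4032 in knockdown cells without knockdown DMSO replicate A (-0.36).

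In the checkpoint the effector kinases CHEK1 and CHEK2 fell throughout and the sensors ATM, ATR and NBN changed less. CHEK1, the kinase that ATR activates at stalled forks, fell in all 5 comparisons, and so did CHEK2, the kinase that ATM activates after breaks. CHEK1 had levels of 7.17 and 7.23 in MITF knockdown cells with PLX4032, 8.09 and 7.99 in MITF knockdown cells with DMSO, 8.20 and 8.29 in scrambled cells with PLX4032 and 9.06 and 9.18 in scrambled cells with DMSO. The 2 singly perturbed groups lay between the scrambled DMSO arrays above and the arrays with both perturbations below. CHEK1 changed by -1.08 ± 0.086 (adjusted p = 4.64e-06) with knockdown in DMSO, -0.88 ± 0.086 (adjusted p = 1.64e-05) with PLX4032 in scrambled cells and -1.92 ± 0.086 (adjusted p = 2.3e-08) with both. CHEK2 changed by -1.43 ± 0.125 (adjusted p = 3.3e-06) with both perturbations. ATM, the kinase that responds to breaks, read 8.40 and 8.66 in MITF knockdown cells with PLX4032, 9.14 and 9.04 in MITF knockdown cells with DMSO, 8.85 and 9.01 in scrambled cells with PLX4032 and 8.71 and 8.83 in scrambled cells with DMSO. Its knockdown arrays were the highest with DMSO and the lowest with PLX4032. Knockdown changed ATM by 0.32 ± 0.105 (adjusted p = 0.0371) in DMSO and by -0.40 ± 0.105 (adjusted p = 0.0152) under PLX4032, and PLX4032 gave -0.56 ± 0.105 (adjusted p = 0.00151) in knockdown cells and 0.16 ± 0.105 (adjusted p = 0.28) in scrambled cells.

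ATR, the kinase of stalled forks, was not called with knockdown in DMSO (-0.09, adjusted p = 0.507) and fell with PLX4032 in scrambled cells (-0.37, adjusted p = 0.0149), in knockdown cells (-0.55, adjusted p = 0.00134) and with both (-0.64, adjusted p = 0.000319). NBN, the subunit of the MRE11 complex that brings ATM to breaks, fell with PLX4032 in scrambled cells (-0.25, adjusted p = 0.043) and was called in no other comparison. That NBN call ended on leaving out any of 6 single arrays (all except the 2 of knockdown with PLX4032, -0.29 to -0.20). The ATR call for PLX4032 in scrambled cells ended without scrambled PLX4032 replicate A or scrambled DMSO replicate B (-0.33 to -0.30). The rise of ATM in DMSO ended without any of the 4 DMSO arrays (0.26 to 0.38). Without replicate A of knockdown with PLX4032, or replicate B of scrambled with PLX4032, the knockdown calls under PLX4032 ended for ATM (-0.31 to -0.27) and CHEK2 (-0.46 to -0.33). Without replicate B of knockdown with PLX4032, ATR was called for knockdown under PLX4032 (-0.38), and ATM for both perturbations (-0.36).

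**Figure D3:**
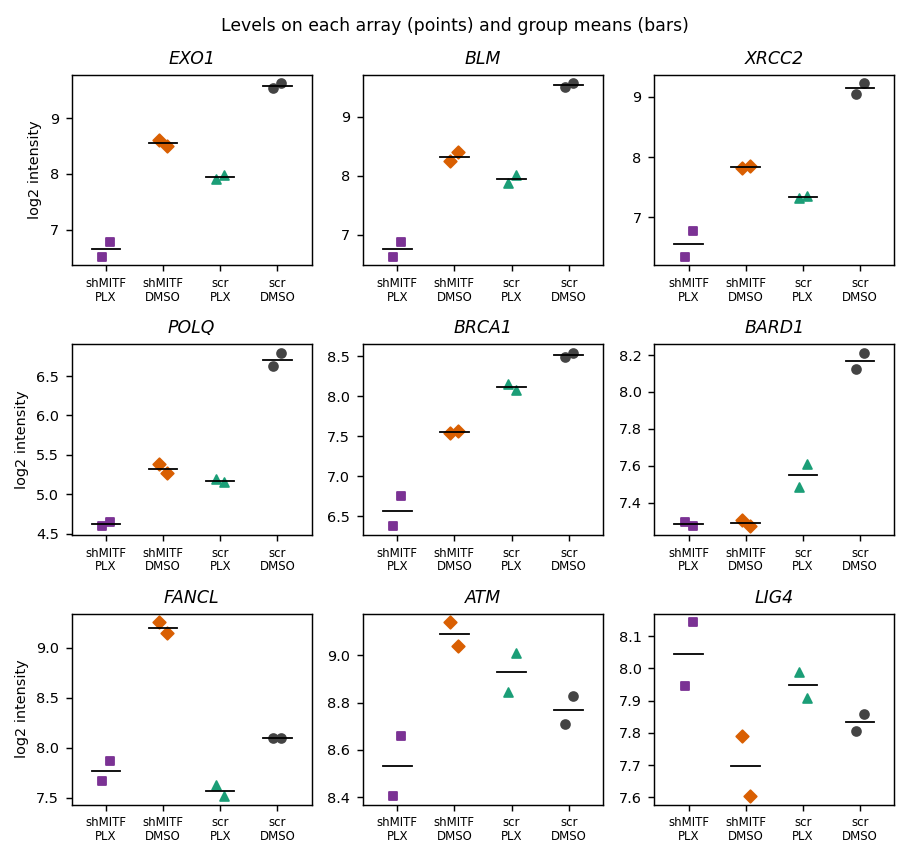
Each panel shows 1 gene, with log2 intensity on a vertical axis of its own range, the 2 arrays of each group as points and their mean as a bar; shMITF is the MITF hairpin, scr the scrambled hairpin and PLX is PLX4032. EXO1, BLM, XRCC2 and POLQ are lowest with both perturbations, FANCL is highest in knockdown cells with DMSO, and LIG4 spans only 7.60 to 8.14.

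The design also asks whether the response to the inhibitor depends on the MITF hairpin. The level of MITF was not fixed in this contrast. Its mean was higher with PLX4032 than with DMSO, at 10.08 against 9.52 in knockdown cells and 10.84 against 10.45 in scrambled cells. The change with PLX4032 in knockdown cells minus that in scrambled cells was tested for each gene, and 10 of the 31 were called, 7 with a positive difference and 3 with a negative one, where 6.97% of all genes tested had a positive and 4.85% a negative one. The 7 were POLQ (0.83 ± 0.126, adjusted p = 0.00143), FANCM (0.65 ± 0.147, adjusted p = 0.0153), BARD1 (0.62 ± 0.117, adjusted p = 0.00589), RAD54B (0.59 ± 0.134, adjusted p = 0.0158), FANCE (0.55 ± 0.131, adjusted p = 0.0189), RAD54L (0.45 ± 0.11, adjusted p = 0.0226) and FANCI (0.44 ± 0.13, adjusted p = 0.0498). In each of these the change with PLX4032 was nearer to 0 in knockdown cells than in scrambled cells, as for POLQ with -0.71 in knockdown cells and -1.54 in scrambled cells. POLQ was among the dimmest 40% of genes, where changes are compressed, and read 4.59 and 4.64 in knockdown cells with PLX4032. The part of low signal in these differences was not tested. The 3 were FANCL (-0.91 ± 0.132, adjusted p = 0.00108), ATM (-0.72 ± 0.149, adjusted p = 0.00944) and BRCA1 (-0.59 ± 0.16, adjusted p = 0.0366), in which PLX4032 gave the lower value in knockdown cells. EXO1, BLM, RAD51AP1 and CHEK1, which fell strongly with either perturbation, were not called, the differences being -0.28 for EXO1 (adjusted p = 0.271), 0.02 for BLM (adjusted p = 0.947), 0.03 for RAD51AP1 (adjusted p = 0.915) and 0.04 for CHEK1 (adjusted p = 0.88). The median difference was 0.154 for the 31 genes and 0.00131 for all genes. The calls of POLQ, BARD1, FANCL and ATM stood in every alternative in which they were tested. Leaving out 1 array ended the BRCA1 call in 7 of 8 fits, all but that without replicate B of knockdown with PLX4032 (-0.62 to -0.40). The RAD54L call (0.41 to 0.47) and the FANCI call (0.36 to 0.48) each ended in 6 fits, all but those without replicate A of knockdown with PLX4032 or of scrambled with DMSO. The FANCE call ended in 4 fits (without either scrambled PLX4032 array, knockdown DMSO replicate A or scrambled DMSO replicate B, 0.46 to 0.57). It ended in 3 fits each for RAD54B (without replicate B of either knockdown group or scrambled PLX4032 replicate A, 0.51 to 0.52) and FANCM (without either knockdown DMSO array or scrambled PLX4032 replicate A, 0.58 to 0.65). Single arrays also decided calls gained: XRCC2 (0.73), XRCC3 (0.64) and EME1 (0.60) were called in 1 such fit each.

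**Figure D4:**
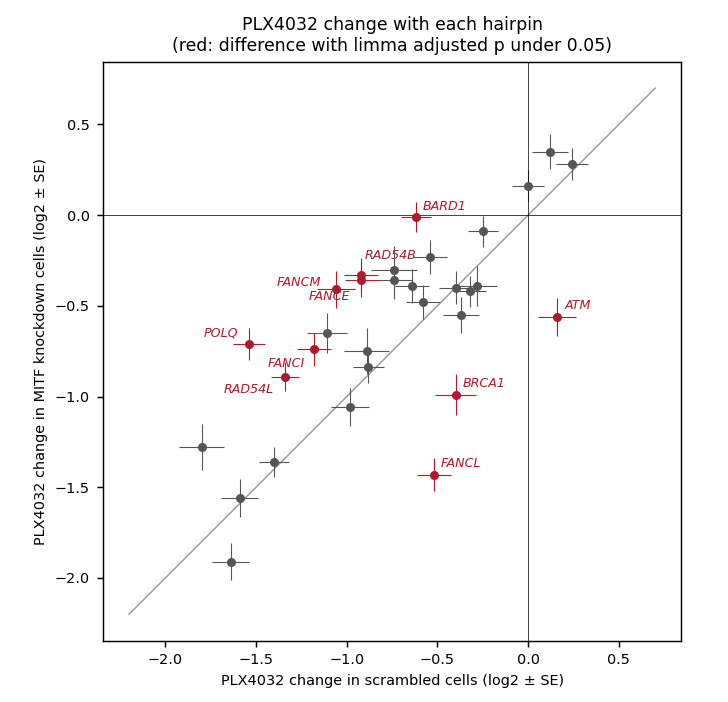
Each point is 1 of the 31 genes, with the log2 change under PLX4032 in scrambled cells on the horizontal axis and in MITF knockdown cells on the vertical axis, bars giving the SE and the diagonal marking equal changes. The 10 genes in red had a called difference, with BARD1, POLQ and 5 others above the diagonal and FANCL, ATM and BRCA1 below it.

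Repair genes outside this list were also lower in part. Of 101 measured among 111 listed, 54 fell and 2 rose with knockdown in DMSO, 41 fell and 11 rose with PLX4032 in scrambled cells, 31 and 16 with PLX4032 in knockdown cells, 35 and 2 with knockdown under PLX4032, and 57 and 11 with both. Of all genes 18.8%, 16.8%, 15.1%, 15% and 21.5% fell in these comparisons, in the same order. As shares, 83.9% of the 31 genes and 53.5% of the 101 fell with knockdown in DMSO. With PLX4032 in scrambled cells 83.9% and 40.6% fell. Both lists were chosen with earlier results of these data known, and the difference between them was not tested. With both perturbations the median change was -1.15 for the 31 genes and -0.352 for the 101. CDC25A, the phosphatase that CHEK1 targets, and CLSPN, which lets ATR activate CHEK1, had the largest falls of the 101 with both perturbations, where CLSPN changed by -3.52 ± 0.115 (adjusted p = 3.16e-09) and CDC25A by -3.00 ± 0.077 (adjusted p = 8.17e-10). CLSPN had levels of 4.45 and 4.77 in MITF knockdown cells with PLX4032, 6.62 and 6.82 in MITF knockdown cells with DMSO, 6.13 and 6.05 in scrambled cells with PLX4032 and 8.06 and 8.18 in scrambled cells with DMSO. RAD51B, a recombination protein, fell with knockdown in DMSO (-1.07 ± 0.087, adjusted p = 5.7e-06) and under PLX4032 (-1.53 ± 0.087, adjusted p = 2.77e-07), and TIPIN, a replication fork protein, fell with PLX4032 in scrambled cells (-1.18 ± 0.117, adjusted p = 1.79e-05).

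Few of the other repair genes rose with knockdown in either treatment, and those that rose in any comparison belonged to several pathways. The share that rose was 1.98% with knockdown in DMSO (14.4% of all genes), 10.9% with PLX4032 in scrambled cells (17.3%), 15.8% with PLX4032 in knockdown cells (18.6%), 1.98% with knockdown under PLX4032 (13.5%) and 10.9% with both (27.1%); these differences were not tested. Of 13 nucleotide excision genes measured, 2 fell (15.4%, near the 18.8% of all genes) and 1 rose (7.69%, against 14.4%) with knockdown in DMSO. ERCC1, a subunit of the nuclease that cuts beside bulky lesions, rose with knockdown in DMSO (0.97 ± 0.097, adjusted p = 2.44e-05) and fell with PLX4032 in knockdown cells (-1.58 ± 0.097, adjusted p = 3.39e-07), an interaction of -1.10 ± 0.137 (adjusted p = 0.000391). Of 8 translesion and reversal genes, 3 rose and 1 fell with PLX4032 in scrambled cells, where 17.3% of all genes rose and 16.8% fell. POLK, a translesion polymerase, rose with PLX4032 in knockdown cells (1.25 ± 0.08, adjusted p = 4.85e-07) and MGMT, which removes alkyl groups from guanine, rose with PLX4032 in scrambled cells (0.59 ± 0.086, adjusted p = 3e-04). DDB2, which detects ultraviolet damage, rose with PLX4032 in knockdown cells (0.82 ± 0.081, adjusted p = 1.3e-05), and so did POLB, the polymerase of base excision (0.77 ± 0.085, adjusted p = 3.26e-05). In scrambled cells PLX4032 raised DCLRE1C, the nuclease Artemis of end joining (0.74 ± 0.107, adjusted p = 0.000298), and RECQL5, a helicase (0.51 ± 0.109, adjusted p = 0.00395).

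Cell cycle genes fell together with the repair genes. Of 25 listed genes of replication and mitosis, 25 fell with knockdown in DMSO, 25 with PLX4032 in scrambled cells, 23 with PLX4032 in knockdown cells, 20 with knockdown under PLX4032 and 25 with both, and 0 rose in any of these. Their median changes were -0.797, -1.14, -0.923, -0.636 and -1.78 in the same order. Of all genes 18.8%, 16.8%, 15.1%, 15% and 21.5% fell, in that order. The cell cycle list, too, was chosen with earlier results of these data known. MKI67, the proliferation marker, changed by -0.92 ± 0.087 with knockdown in DMSO, -1.18 ± 0.087 with PLX4032 in scrambled cells and -1.78 ± 0.087 with both. CDK1, the kinase of mitotic entry, changed by -2.34 ± 0.177 with both perturbations, CCNA2, a cyclin of replication and mitotic entry, by -1.61 ± 0.088, MCM2, a subunit of the replicative helicase, by -1.64 ± 0.085, and PCNA, the sliding clamp of replication, by -0.86 ± 0.09. In the interaction test 6 of the 25 had a positive and 1 a negative difference, against 6.97% and 4.85% of all genes.

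**Figure D5:**
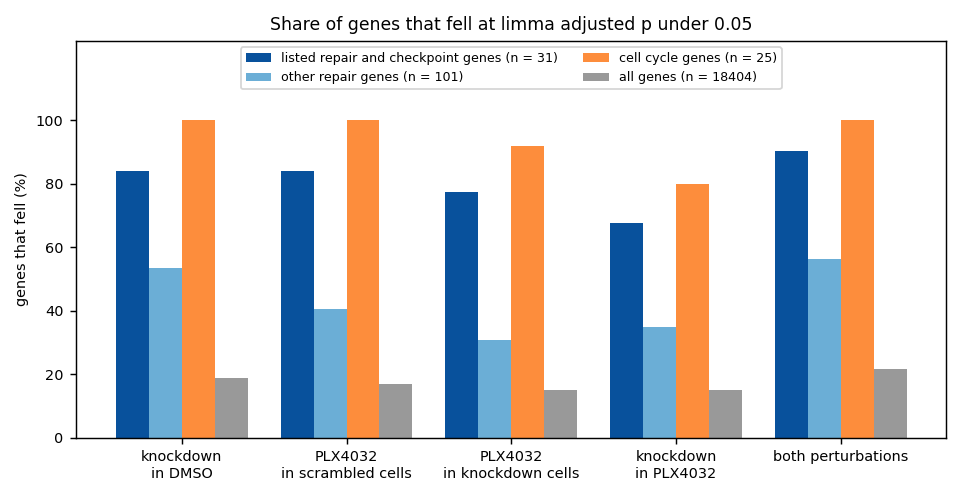
Bars give the percentage of genes that fell at a limma adjusted p under 0.05 in each of the 5 comparisons, for the 31 repair and checkpoint genes, 101 other repair genes, 25 cell cycle genes and all 18404 genes. Cell cycle genes had the highest share in each comparison (100% in 3 of them), followed by the 31 genes (67.7% to 90.3%), the other repair genes and all genes.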

How the data were processed

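The authors deposited log2 intensities, 1 value per probe set on each of 8 arrays, made with RMA per the submitters' processing notes. RMA gives the probes of all arrays the same distribution before they are summed up per probe set: a global shift is largely lost, and changes of dim probe sets shrink. The medians of the gene values still ran from 6.738 to 6.811 over the arrays. The authors' genome build and annotation: not given in the sources used here. Probe sets were named from the platform annotation of 2016: 19158 of 32321 had exactly 1 symbol, 1388 several, and 11775 none or no entry, and 0 symbols changed against RefSeq names. The 637 genes with several probe sets (0 of them repair genes of the list) were represented by the brightest. Signal over background is unknown, as detection calls were not used.

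Group means were fitted over all arrays with limma 3.58.1 (lmFit and eBayes, R 4.3.3; 4 residual and 6.73 prior degrees of freedom), and two-sided p-values were adjusted by Benjamini-Hochberg across 18404 genes, separately for 6 comparisons, with a threshold of 0.05. The fit was tested on simulated data. No set test was run.

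The genes and lists were chosen with earlier results of these data known. Values on every array are given for the 3 largest called changes in a comparison and for genes called in the interaction, and also for CHEK1, RAD51AP1, LIG4 and CLSPN, which were chosen after their values were seen. Of the other repair genes, those with the 3 largest called changes per direction and comparison could be named. Promoter letters were searched on both strands in the 250 bases before the start. TTTCCCGC and TTCCCGCC can overlap, and the set of E2F letters was widened once after a first search. RefSeq coordinates are on GRCh38.p14.

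The alternatives were a repeated quantile normalization, a fit without the dimmest 40% of genes, a variance trend, the mean of a gene's probe sets, a fit of only the groups compared, the replicate letter as a block, and leaving out each array in turn.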

Additional observations from a re-analysis of the deposited data

Results flagged for a closer look

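For 10 of the 31 repair and checkpoint genes the change with PLX4032 in knockdown cells differed from that in scrambled cells by the interaction test of the limma fit. The difference in log2 change, knockdown minus scrambled, was 0.83 for POLQ, 0.65 for FANCM, 0.62 for BARD1, 0.59 for RAD54B, 0.55 for FANCE, 0.45 for RAD54L and 0.44 for FANCI, and it was -0.91 for FANCL, -0.72 for ATM and -0.59 for BRCA1. Of these, the calls of BARD1, FANCL, POLQ and ATM were made in every alternative in which they were tested, POLQ not being tested without the dimmest 40% of genes. Groups of 2 arrays are too small for a check of single outlying arrays.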

How the results depend on the processing

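The number of genes that fell stayed within 1.5 times in all 14 alternatives for each comparison of groups. With 1 array left out, 24 to 26 genes fell for knockdown in DMSO, 22 to 27 for PLX4032 in scrambled cells, 18 to 25 for PLX4032 in knockdown cells, 17 to 22 for knockdown under PLX4032 and 26 to 29 for both perturbations. The genes that rose numbered 1 to 2 for knockdown in DMSO, 0 to 2 for PLX4032 in knockdown cells and 0 to 1 for both, and the interaction had 3 to 8 positive and 2 to 3 negative calls. For PLX4032 in scrambled cells 1 gene, FANCF, rose (against 0) under repeated quantile normalization, without the dimmest 40% of genes and with the variance trend, and 1 gene, LIG4, rose with both perturbations under repeated quantile normalization; the cause was not tested. Over single genes, 2567 alternative values gave 95 lost calls, 26 gained calls, 35 changes of sign of values not called in either setting, and 0 reversals of a call. The deviations of replicate A from its group mean correlated at -0.094 to 0.329 between groups, over 2 letters only. The highest value was between knockdown with PLX4032 and scrambled with DMSO. Whether the replicate letters pair the samples is therefore not settled. With the replicate block the falls numbered 26, 25, 24, 21 and 28 in the order above, and NBN lost its call for PLX4032 in scrambled cells (-0.246, adjusted p = 0.0523), as it did under repeated quantile normalization (adjusted p = 0.0612) and with only the 2 groups (0.069). Repeated quantile normalization also ended the calls of RAD51C (adjusted p = 0.0751) and PRKDC (0.08) for knockdown in DMSO, and a fit of only the 2 groups that of BARD1 for knockdown under PLX4032 (0.0632). In the interaction RAD54L lost its call with the variance trend (0.451, adjusted p = 0.063) and FANCI under repeated quantile normalization (0.393, adjusted p = 0.0534). A fit with 1 array in a group assumes that it varies like the other groups.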
